A study of Mus musculus with 10 samples.

Results

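The genes described here are 10 Toll-like receptors and the proteins they work with, Tlr1, Tlr2, Tlr4, Tlr6, Tlr7, Tlr8, Tlr9, Cd14, Ly96 and Myd88. Their probe sets were found by gene symbol in the platform table, with no use of measured values. All 10 genes were on the array, out of 18193 named genes, with 15 of the 45037 probe sets. RNA came from pieces of spleen of 10 female BALB/c mice, with 1 Affymetrix array per mouse. Every mouse, the controls included, had been given cartilage proteoglycan (PG) with the adjuvant DDA intraperitoneally, the treatment that induces PG-induced arthritis (PGIA), so no untreated mice were among these arrays. The labels name 2 old arthritic mice (both 9 months), 2 old non-arthritic mice (7 and 5 months), 2 young arthritic mice (5 and 4 months) and 4 young non-arthritic mice (3, 3, 2 and 1 months). The arthritic mice were older than the non-arthritic mice of the same age group, so that arthritis and age cannot be told apart within an age group.

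Toll-like receptors are sensors of innate immunity that bind molecules of microbes and, in some settings, of damaged tissue. Some sit at the cell surface and bind bacterial lipoproteins or lipopolysaccharide, and others sit in endosomes and bind nucleic acids. Nearly all of them pass the signal to the adaptor Myd88, which recruits kinases that activate NF-κB and lead to the production of inflammatory cytokines. In the spleen they are carried by macrophages, monocytes, neutrophils, dendritic cells and B cells. In arthritis they have been studied as sensors of adjuvants, of microbial products and of fragments of cartilage matrix.

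Promoters of the receptors Tlr8 and Tlr9 and of the shared adaptor Myd88 are given here. Of the genes whose promoters were searched, Tlr8 and Tlr9 had the highest correlation over the mice (r = 0.78). Myd88 serves nearly all of the receptors. Each is the 250 bases before the transcription start in the RefSeq table of build GRCm38.p6, written 5′ to 3′ on the strand of the gene. Promoters of 6 of the 10 genes were searched. Those of Tlr4, Ly96, Cd14 and Tlr7 were not, and entries of the 10 genes on 1 chromosome were left out. Capitals mark GAGGAA, the core letters bound by the myeloid factor PU.1, or its reverse complement, and the letters of the interferon response element, taken as 2 copies of GAAA that are 2 bases apart. Both strands were searched, as they were for NF-κB sites. Tlr8 lies on chrX:167264330-167264579 (minus strand), Tlr9 on chr9:106222348-106222597 (plus strand) and Myd88 on chr9:119340019-119340268 (minus strand).
Tlr8: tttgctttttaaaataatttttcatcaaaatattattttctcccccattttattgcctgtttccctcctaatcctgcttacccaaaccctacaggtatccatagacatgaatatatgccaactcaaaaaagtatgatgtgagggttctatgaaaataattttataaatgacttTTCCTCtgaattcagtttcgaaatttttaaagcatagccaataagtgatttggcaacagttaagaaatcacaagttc
Tlr9: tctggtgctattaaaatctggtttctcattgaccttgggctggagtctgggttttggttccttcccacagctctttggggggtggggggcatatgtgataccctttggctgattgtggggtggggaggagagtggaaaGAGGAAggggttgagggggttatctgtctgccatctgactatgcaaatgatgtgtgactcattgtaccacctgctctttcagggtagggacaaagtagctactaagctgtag
Myd88: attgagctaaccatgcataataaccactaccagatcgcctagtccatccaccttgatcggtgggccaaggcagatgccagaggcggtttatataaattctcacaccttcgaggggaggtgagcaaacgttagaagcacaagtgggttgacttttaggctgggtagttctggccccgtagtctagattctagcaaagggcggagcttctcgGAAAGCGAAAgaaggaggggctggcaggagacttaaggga
The PU.1 letters began 77 bases before the start of Tlr8, on the other strand, and 112 bases before that of Tlr9. These letters were in 23.3% of 32851 promoters of the same length, so their presence in both genes is no more than a description. The interferon response letters, found in 2.98% of promoters, began 40 bases before the start of Myd88. They also occurred at overlapping positions before 1 start of Tlr6, 116 and 110 bases upstream. NF-κB letters were in 7.25% of promoters. Among the 6 genes searched they were found only before Tlr2, at overlapping positions 173 and 172 bases upstream.

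Values are log2 signals of probe sets after robust multi-array average (RMA), on which a difference of 1 is a 2-fold difference. Array medians lay between 6.88 and 6.96. A probe set entered the main tests when it lay above its array's median in at least 2 arrays, which kept 23805 probe sets. All 10 genes passed with their brightest probe set, which was above the median on all 10 arrays, and 12 of the 15 probe sets passed. The probe sets left out were 1 of 4 for Tlr4 and 2 of 3 for Tlr7. Old arthritic replicate 2 stood apart from the other arrays on the first principal component, with a score of 52.6 against at most 19.6, and values that rest on it are also given without it. Among marker lists, no gene for any cell type passed the adjusted threshold in any of the 6 comparisons.

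No gene of the set passed an adjusted p of 0.05 (limma, Benjamini-Hochberg over all kept probe sets) in any comparison. Between arthritic and non-arthritic old mice, 0.0714% of all kept probe sets passed, and in young mice 0.311%. At equal age, in a fit that holds arthritis status together with age in months, 2.26% passed, and for age in months 0.00420%. Between old and young non-arthritic mice the share was 0%. The arthritis difference of old mice was also set against that of young mice (the interaction of arthritis and age group), where the share was 0% as well. The smallest adjusted p of the 10 genes was 0.138 for old mice, 0.261 for young mice and 0.193 at equal age. The fit at equal age takes the same straight slope of age for arthritic and non-arthritic mice. The ages were not matched, with a mean of 6.75 months in arthritic and 3.5 months in non-arthritic mice. No non-arthritic mouse was as old as the old arthritic mice, so values at equal age rest on that slope.

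At an unadjusted p under 0.05, 1 of the 10 genes passed in old mice (Ly96, lower), against 18.6% of all kept probe sets. In young mice 1 passed (Tlr8, higher), against 18.2%, and at equal age 1 passed (Tlr2, higher), against 22.9%. For the interaction 1 passed (Ly96), against 3.10%. None passed between the age groups of non-arthritic mice, where the share was 3.19%, or for age in months, where it was 9.98%. A count of 1 in 10 thus lay below the share of all probe sets in each comparison of arthritis, the interaction apart. From the lowest to the highest limit over the 10 genes, the 95% intervals of the differences ran from -1.01 to 0.65 in old mice. In young mice they ran from -0.55 to 0.52. The interval of each single gene was narrower. That of Ly96 in old mice ran from -0.99 to -0.21 and that of Tlr8 in young mice from 0.01 to 0.50.

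**Figure D1:**
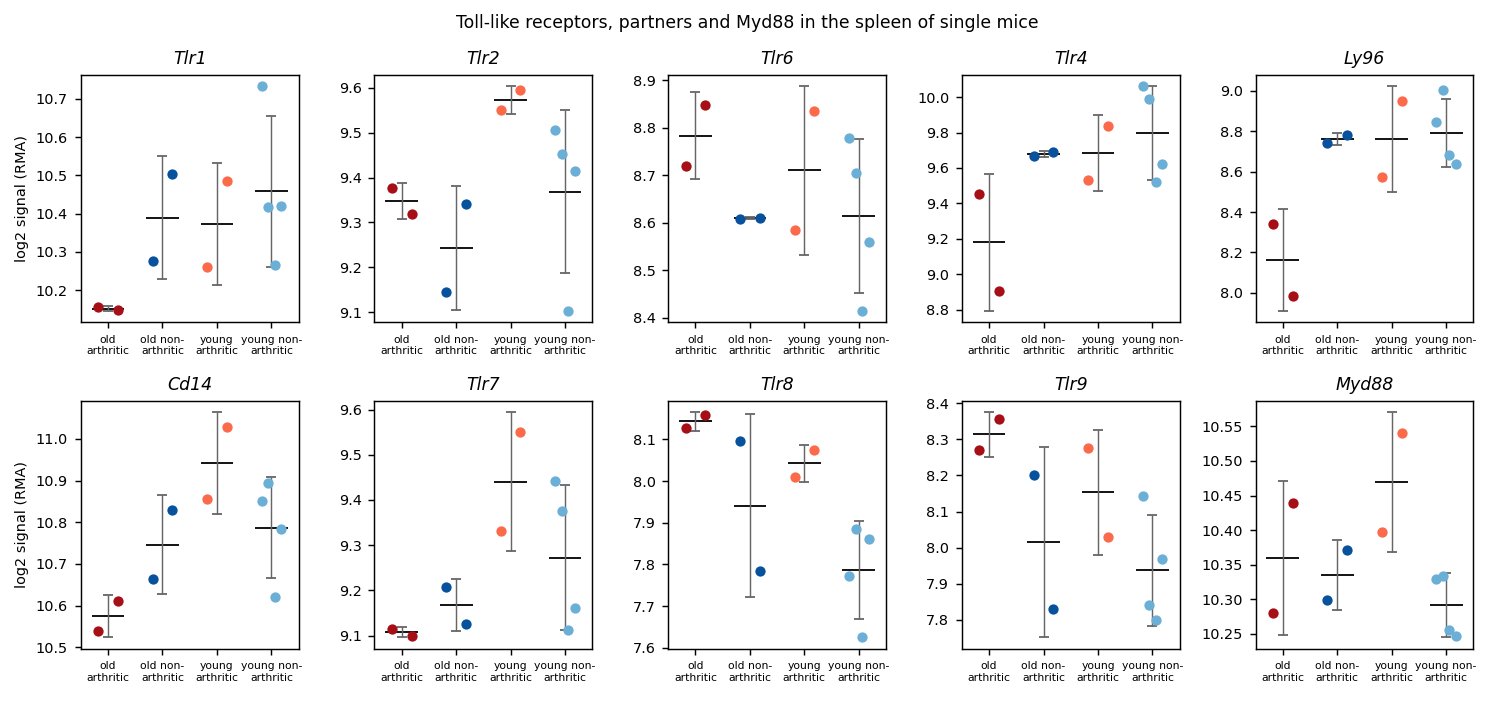
Log2 signal (RMA, y-axis, own scale in each panel) of the brightest probe set of each of the 10 genes in the 4 groups (x-axis), where each point is 1 mouse, the black line is the group mean and the bar the SD (2 mice per group, 4 young non-arthritic). Both old arthritic mice lay below the other 8 mice for Ly96, Tlr4, Tlr1 and Cd14, and in no panel did all 4 arthritic mice separate from all 6 non-arthritic mice.

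Tlr2 is the common partner of the lipoprotein receptors, pairing with Tlr1 or with Tlr6 to bind bacterial lipopeptides. The Tlr2 signal was 9.38 and 9.32 in the old arthritic mice, 9.14 and 9.34 in the old non-arthritic mice, 9.55 and 9.60 in the young arthritic mice and 9.51, 9.45, 9.10 and 9.42 in the young non-arthritic mice. Both young arthritic mice lay above the 4 young non-arthritic mice, by a narrow margin, and the old groups overlapped. The difference was 0.20 (SE 0.12, limma adjusted p = 0.381) in young mice and 0.10 (SE 0.14, adjusted p = 0.698) in old mice. At equal age Tlr2 had the largest difference of the 10 genes, 0.26 (SE 0.11, unadjusted p = 0.0381, limma adjusted p = 0.193), with a 95% interval from 0.02 to 0.50. All 4 arthritic mice together did not separate from the 6 non-arthritic mice.

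Tlr1 ran the other way in old mice. Its signal was 10.16 and 10.15 in the old arthritic mice, 10.28 and 10.50 in the old non-arthritic mice, 10.26 and 10.49 in the young arthritic mice and 10.73, 10.42, 10.27 and 10.42 in the young non-arthritic mice. The old arthritic mice were the lowest of all 10 mice, while the young groups overlapped. The difference in old mice was -0.24 (SE 0.16, limma adjusted p = 0.421) and in young mice -0.09 (SE 0.13, adjusted p = 0.752). Tlr6 ranged from 8.41 to 8.85 over all mice. Its old arthritic mice (8.72 and 8.85) lay above the old non-arthritic mice (both 8.61), with a difference of 0.17 (SE 0.14, limma adjusted p = 0.503), and its young groups overlapped. Over the 10 mice Tlr2 correlated with Tlr6 at r = 0.56 and with Tlr1 at r = 0.45, as a description over mice of all 4 groups.

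Tlr4 senses lipopolysaccharide at the cell surface, Ly96 is the small secreted protein that binds the lipid within the Tlr4 complex, and Cd14 hands the lipid over to them. Tlr4 and Ly96 held the largest differences of the set, both between old arthritic and old non-arthritic mice. The Ly96 signal was 8.34 and 7.98 in the old arthritic mice, 8.74 and 8.78 in the old non-arthritic mice, 8.58 and 8.95 in the young arthritic mice and 8.85, 9.01, 8.68 and 8.64 in the young non-arthritic mice. Both old arthritic mice, the oldest of the study, lay below the other 8. The difference in old mice was -0.60 (SE 0.17, 95% interval -0.99 to -0.21, unadjusted p = 0.00694, limma adjusted p = 0.138). In young mice it was -0.03 (SE 0.15, limma adjusted p = 0.922), with a sign that turned on a single mouse, at 0.16 without young arthritic replicate 1 and -0.22 without replicate 2. With age in months in the fit the Ly96 difference was much smaller than in old mice, -0.13 (SE 0.17, limma adjusted p = 0.691), at 0.00 without old non-arthritic replicate 1 and -0.38 without young arthritic replicate 2. The interaction was -0.57 (SE 0.23, unadjusted p = 0.0342, limma adjusted p = 1.00), so that a difference between the age groups was not established for Ly96. Without old arthritic replicate 2 the Ly96 difference in old mice was -0.42 (limma adjusted p = 0.529), and without old arthritic replicate 1 it was -0.78 (adjusted p = 0.0514), which are the ends of the range over all alternatives.

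For Tlr4 the brightest probe set read 9.45 and 8.91 in the old arthritic mice, 9.67 and 9.69 in the old non-arthritic mice, 9.53 and 9.84 in the young arthritic mice and 10.06, 9.99, 9.52 and 9.62 in the young non-arthritic mice. The old arthritic mice were again the lowest of the 10, one of them only narrowly. The difference in old mice was -0.50 (SE 0.23, unadjusted p = 0.0545, limma adjusted p = 0.277). It depended on a single mouse, being -0.22 (adjusted p = 0.817) without old arthritic replicate 2 and -0.77 (adjusted p = 0.0859) without old arthritic replicate 1, the ends of its range over all alternatives. At equal age the brightest probe set gave -0.15 (SE 0.20, limma adjusted p = 0.682), and -0.35 without young arthritic replicate 2. In old mice the other kept Tlr4 probe sets gave -0.42 (SE 0.22) and -0.20 (SE 0.22), the latter with overlapping groups, and in both of them old arthritic replicate 1 lay within the range of the other mice. They followed the brightest one over the 10 mice at r = 0.97 and 0.90. The dim probe set, at most 3.97 on any array, gave 0.10 (SE 0.11) and did not follow it (r = -0.20).

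**Figure D2:**
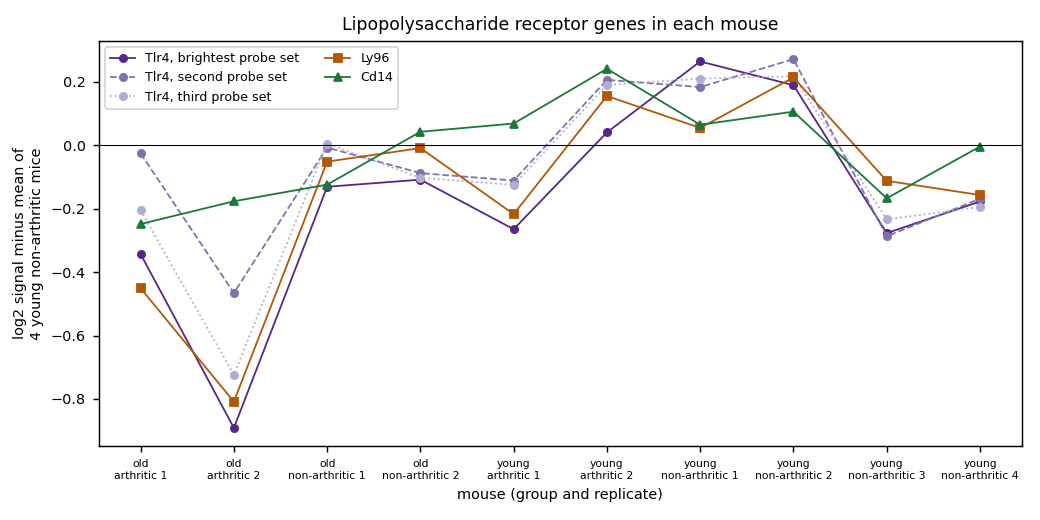
Log2 signal minus the mean of the 4 young non-arthritic mice (y-axis) for Ly96, Cd14 and the 3 kept probe sets of Tlr4 in each of the 10 mice (x-axis), with lines that only join the points of 1 probe set. Every line but that of Cd14 was lowest in old arthritic replicate 2. Old arthritic replicate 1 lay below all non-arthritic and young mice for Ly96 and the brightest Tlr4 probe set, and not for the other Tlr4 probe sets.

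Cd14 varied less. Its signal was 10.54 and 10.61 in the old arthritic mice, 10.66 and 10.83 in the old non-arthritic mice, 10.86 and 11.03 in the young arthritic mice and 10.85, 10.89, 10.62 and 10.78 in the young non-arthritic mice. The old arthritic mice were the 2 lowest of all mice, and the highest value belonged to a young arthritic mouse. The difference was -0.17 (SE 0.12, limma adjusted p = 0.443) in old mice and 0.16 (SE 0.10, adjusted p = 0.432) in young mice. When the arrays were quantile normalized again, the value in young mice was 0.03. The interaction was -0.33 (SE 0.16, unadjusted p = 0.0649, limma adjusted p = 1.00).

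The genes of the lipopolysaccharide receptor varied together over the 10 mice. Tlr4 and Ly96 had the highest correlation of the 45 pairs of genes, r = 0.94, and r = 0.84 without old arthritic replicate 2. Ly96 and Cd14 correlated at 0.72 and Tlr4 and Cd14 at 0.66. These are descriptions over arrays that share groups, tissue composition and normalization, and 33 of the 45 pairs were positive with a median of 0.45. The named genes most like Tlr4, of 11869 compared, were Bmt2 (r = 0.97), Septin7 (0.97) and Gpr174 (0.96). Without old arthritic replicate 2 these were 0.93, 0.91 and 0.92. The genes most like Ly96 were Cav2, Calcrl and Klrc1 (each 0.96, and 0.91, 0.91 and 0.90 without that mouse). Of these, Cav2 is a caveolin and Calcrl a receptor of blood and lymph vessels. The genes most like Cd14 were Klhl7 (0.96), Rapgef2 (0.93) and Tnfaip8 (0.93).

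The mean levels of several marker lists were lower in the old arthritic mice, although no marker passed the adjusted threshold. At an unadjusted p under 0.05, 18.6% of all kept probe sets passed in old mice and 18.2% in young mice, against which the counts here are to be read. Markers of macrophages and monocytes, which carry all 3 genes, had a mean of 12.16 in both old arthritic mice and 12.23 to 12.30 in the old non-arthritic mice, and 4 of the 13 were lower at that level. Over the list the values were mixed, with 5 of 13 higher and a median difference of -0.08. The 2 with the smallest p were Adgre1, a surface receptor of macrophages (-0.32, SE 0.09), and Csf1r, the receptor for the growth factor of macrophages (-0.33, SE 0.10). In young mice the same list was at 12.37 to 12.46 in arthritic and 12.21 to 12.25 in non-arthritic mice, with 12 of 13 higher, 5 of them at that level. Markers of capsule mesothelium and fat, 6 of 8 kept, had a mean of 7.57 to 7.90 in the old arthritic mice against 8.25 to 8.39 in the old non-arthritic mice, with 3 of the 6 lower at that level. T cell markers, all 8 kept, stood at 10.10 to 10.12 against 10.24 to 10.38, with 1 of 8 lower at that level, a smaller share than that of all probe sets. Conventional dendritic cell markers, 5 of 6 kept, stood at 8.74 to 8.83 against 8.90 to 8.91 in the same mice. Erythroid markers, 5 of 8 kept, were higher, at 12.71 to 12.76 against 12.47 to 12.56. No gene of these last lists passed that level in old mice. The part of these cell types in the Tlr4 and Ly96 values was not tested, and in a piece of whole spleen fewer cells of a type and less RNA per cell cannot be told apart.

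Tlr7, Tlr8 and Tlr9 reside in endosomes, where Tlr7 binds single-stranded RNA and Tlr9 unmethylated CpG DNA, while Tlr8 is the close relative of Tlr7. The Tlr8 signal was 8.13 and 8.16 in the old arthritic mice, 8.10 and 7.79 in the old non-arthritic mice, 8.01 and 8.07 in the young arthritic mice and 7.77, 7.89, 7.63 and 7.86 in the young non-arthritic mice. Within each age group both arthritic mice lay above the non-arthritic mice, in old mice by little. The difference was 0.26 (SE 0.11, unadjusted p = 0.0429, limma adjusted p = 0.261) in young mice and 0.20 (SE 0.13, adjusted p = 0.398) in old mice. With age in months in the fit it was 0.14 (SE 0.09, limma adjusted p = 0.381). The value in old mice rested on the control mice, at 0.36 without old non-arthritic replicate 1 and 0.05 without replicate 2 of that group.

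Tlr9 had a similar order in old mice. Its signal was 8.27 and 8.36 in the old arthritic mice, 8.20 and 7.83 in the old non-arthritic mice, 8.28 and 8.03 in the young arthritic mice and 8.14, 7.84, 7.80 and 7.97 in the young non-arthritic mice. The old groups did not overlap and the young groups did. The difference was 0.30 (SE 0.16, limma adjusted p = 0.337) in old mice and 0.22 (SE 0.14, adjusted p = 0.417) in young mice. In old mice it was 0.48 without old non-arthritic replicate 1 and 0.11 without replicate 2.

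Tlr8 and Tlr9, whose promoters are printed above, correlated at r = 0.78 over the 10 mice (0.73 without old arthritic replicate 2). Tlr7 correlated with them at only 0.05 and -0.03 and was closest among the set to Cd14, at r = 0.84. The named genes most like Tlr7 were Rgs2 (0.95), a regulator of G-protein signalling, Samsn1 (0.94) and Ifit1bl1 (0.94), a member of a family of interferon-induced genes. Those most like Tlr8 were Atp4b (0.97), Faap24 (0.94) and Nit2 (0.94), and those most like Tlr9 were Speer3 (0.94), Sh2d4a (0.93) and Dkkl1 (0.93). Ly96 and Tlr9 were opposed, at r = -0.66, and at -0.52 without old arthritic replicate 2.

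The Tlr7 signal was 9.12 and 9.10 in the old arthritic mice, 9.21 and 9.13 in the old non-arthritic mice, 9.33 and 9.55 in the young arthritic mice and 9.44, 9.38, 9.11 and 9.16 in the young non-arthritic mice. The highest value was that of a young arthritic mouse, and the young groups overlapped. The difference was 0.17 (SE 0.11, limma adjusted p = 0.445) in young mice and -0.06 (SE 0.13, adjusted p = 0.827) in old mice. Its dim probe sets, at 5.79 to 6.35 on all arrays, gave -0.20 and -0.19 in old mice and 0.01 and -0.07 in young mice. They followed the brightest probe set at r = 0.86 and 0.69.

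Myd88, the adaptor that most Toll-like receptors and the interleukin-1 receptor family share, had the smallest range over the 10 mice among the genes of the set. It read 10.28 and 10.44 in the old arthritic mice, 10.30 and 10.37 in the old non-arthritic mice, 10.40 and 10.54 in the young arthritic mice and 10.33, 10.33, 10.26 and 10.25 in the young non-arthritic mice. Both young arthritic mice lay above the 4 young non-arthritic mice and the old groups overlapped. The difference was 0.18 (SE 0.08, unadjusted p = 0.0590, limma adjusted p = 0.291) in young mice, 0.13 (SE 0.08, adjusted p = 0.353) at equal age and 0.02 (SE 0.10, adjusted p = 0.908) in old mice. When the arrays were quantile normalized again, it was 0.05 in young mice and -0.0045 at equal age. The genes most like Myd88 were Wls (0.94), which carries Wnt proteins to the cell surface, Fam207a (0.94) and Gstt1 (0.93).

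**Figure D3:**
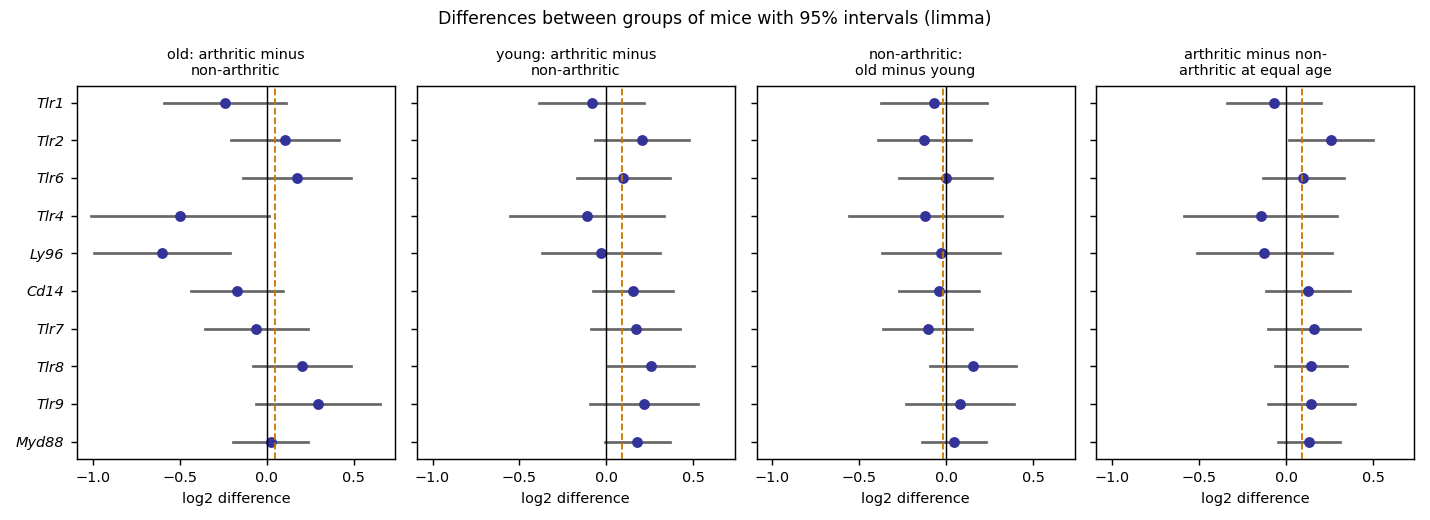
Log2 difference (x-axis) of the 10 genes (y-axis) in 4 comparisons of the limma fits, where points are estimates, bars are 95% intervals and the dashed line is the median of all kept probe sets. The bars of Ly96 in old mice, Tlr8 in young mice and Tlr2 at equal age did not cross 0, and none of these passed the adjusted threshold.

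As a group the 10 genes did not share a direction in old mice, where 5 were higher and 5 lower in arthritic mice, with a median difference of -0.02 against 0.05 over all kept probe sets. In young mice 7 were higher and 3 lower, with a median of 0.16 against 0.09. At equal age the counts were again 7 and 3, with a median of 0.13 against 0.09. That split became 5 and 5 when the arrays were quantile normalized again, with Cd14 and Myd88 changing sign. Groups did not overlap for 8 of the 10 genes in old mice, against 51.5% of all kept probe sets, and for 3 in young mice, against 31.9%. At equal age none of the 10 separated all 4 arthritic from all 6 non-arthritic mice, which 12.1% of kept probe sets did.

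Age gave no called difference in the set. Between old and young non-arthritic mice the adjusted p was 0.997 or higher for all 10 genes, and the largest differences were 0.15 (SE 0.11) for Tlr8, -0.13 (SE 0.12) for Tlr2 and -0.12 (SE 0.20) for Tlr4. The Tlr8 value rested on single old mice, at 0.00 without old non-arthritic replicate 1 and 0.31 without replicate 2, and the Tlr4 value was -0.35 with the replicate number as a block. None of the 10 separated these groups, which 12.0% of kept probe sets did. For age in months the smallest limma adjusted p was 0.503, for Cd14, with a slope of -0.04 on the log2 scale per month, and -0.01 without the old arthritic mice.

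Of 53 other genes of the Toll pathway listed by role, 46 were on the array by name and 41 were kept. At an unadjusted p under 0.05, 19.5% of the 41 passed in young mice (7 higher, 1 lower) and 19.5% at equal age (7 higher, 1 lower), close to the shares of all probe sets. In old mice the share was 7.32% (3 higher). All 12 kept kinases and ligases of the cascade had higher values in young arthritic than in young non-arthritic mice. Their median difference was 0.18, against 0.09 over all kept probe sets. Of the 12, 4 passed an unadjusted p of 0.05 (limma), against 18.2% of all kept probe sets. The share of all probe sets that were higher was not taken. When the arrays were quantile normalized again, the median of all kept probe sets in young mice was 0.0009. In old mice 7 of these 12 were higher, with a median of 0.05. Irak1, a kinase that Myd88 recruits, had 0.38 (SE 0.11, limma adjusted p = 0.0880) at equal age in its brightest probe set, while its other 3 probe sets gave 0.23, 0.08 and -0.02.

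Among the 41, 2 genes passed the adjusted threshold, both at equal age, where 2.26% of all kept probe sets passed. Both were named after their values were seen. Tnf, the inflammatory cytokine at the end of the Myd88 pathway, read 7.88 and 8.14 in the old arthritic mice, 7.65 and 7.67 in the old non-arthritic mice, 8.09 and 8.13 in the young arthritic mice and 7.70, 7.75, 7.51 and 7.67 in the young non-arthritic mice. All 4 arthritic mice lay above all 6 non-arthritic mice. The Tnf difference was 0.43 (SE 0.09, limma adjusted p = 0.0461) at equal age, 0.45 (SE 0.10, adjusted p = 0.0934) in young mice and 0.35 (SE 0.11, adjusted p = 0.168) in old mice. The call sat close to the threshold. It was kept on leaving out old arthritic replicate 1 or young non-arthritic replicate 4 and lost on leaving out any of the 8 other mice, with adjusted p from 0.0321 to 0.256.

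Tlr5, the receptor for bacterial flagellin, was the other. It read 6.53 and 6.84 in the old arthritic mice, 7.17 and 6.78 in the old non-arthritic mice, 6.23 and 6.27 in the young arthritic mice and 6.77, 6.91, 6.81 and 6.89 in the young non-arthritic mice. These are dim values, at or below the array medians in most mice. The low values were those of the young arthritic mice and 1 old arthritic mouse. None of the 4 arthritic arrays exceeded its median, and the probe set passed the filter only through 2 non-arthritic mice, old replicate 1 and young replicate 2. It thus entered the test through the group in which it was higher, and its direction is given as a description. The log2 difference at equal age was -0.64 (SE 0.12, limma adjusted p = 0.0301, and 0.00695 in the fit of all probe sets, with 0.00406 to 0.200 over all alternatives). The difference was -0.59 (SE 0.12, adjusted p = 0.0893) in young mice and -0.30 (SE 0.14, adjusted p = 0.303) in old mice, where the groups overlapped. Of the 21232 probe sets below the filter, 18.2% were lower and 17.6% higher in arthritic mice at equal age at an unadjusted p under 0.05, so that dim probe sets differed in both directions. The Tlr5 call was lost without either young arthritic mouse (adjusted p = 0.114 and 0.200) and without old non-arthritic replicate 2 (0.0665).

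Tlr13, an endosomal receptor for bacterial ribosomal RNA, stood at 10.03 and 10.22 in the old arthritic mice, 9.93 and 9.81 in the old non-arthritic mice, 10.36 and 10.47 in the young arthritic mice and 10.08, 10.03, 9.86 and 9.75 in the young non-arthritic mice. Within each age group the arthritic mice lay above the non-arthritic mice. The difference was 0.49 (SE 0.11, limma adjusted p = 0.107) in young mice, 0.26 (SE 0.13, adjusted p = 0.317) in old mice and 0.45 (SE 0.12, adjusted p = 0.0727) at equal age. It was named after its values were seen.

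**Figure D4:**
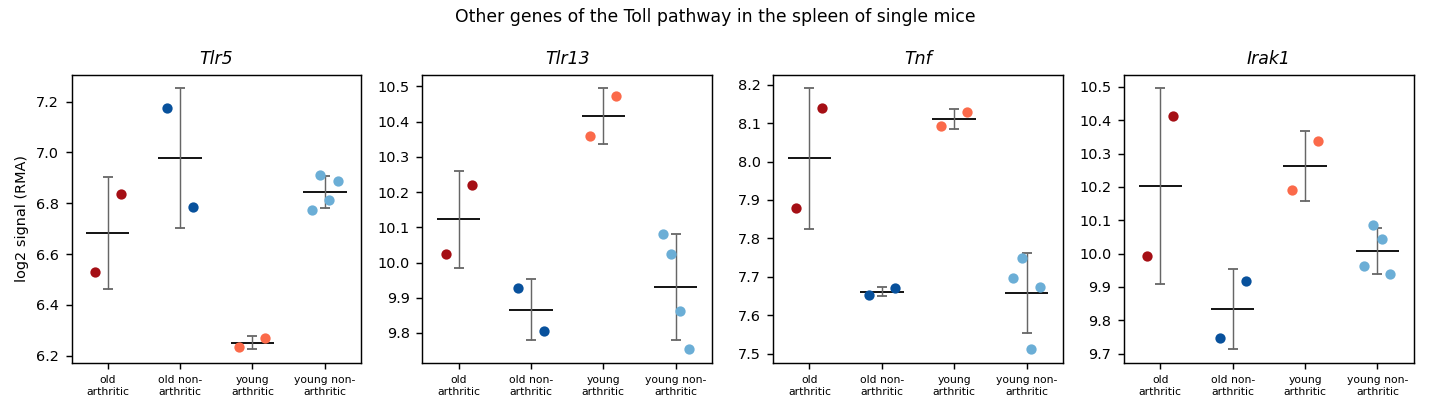
Log2 signal (RMA, y-axis, own scale in each panel) of Tlr5, Tlr13, Tnf and the brightest Irak1 probe set in the 4 groups (x-axis), where each point is 1 mouse, the black line is the group mean and the bar the SD. Tnf lay above 7.8 in the 4 arthritic mice and below it in the 6 non-arthritic mice, and Tlr5 was lowest in the young arthritic mice, at 6.23 and 6.27.

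Neutrophils carry several of these genes, among them Tlr2, Tlr4, Cd14 and Tlr8. The mean of the 11 of 12 neutrophil markers kept was 12.40 to 12.82 in the old arthritic mice and 11.57 to 11.74 in the old non-arthritic mice. Of the 11, 10 were higher in old arthritic mice, 9 of them at an unadjusted p under 0.05 (limma), against 18.6% of all kept probe sets. Mmp8, a collagenase of neutrophil granules, had the smallest p in old mice, with 1.87 (SE 0.43, limma adjusted p = 0.103). In young mice the mean was 12.37 to 13.01 in arthritic and 11.89 to 12.60 in non-arthritic mice. Of the 11, 10 were higher in young arthritic mice and 1 passed that level, against 18.2% of all kept probe sets. Between the non-arthritic groups, 8 of the 11 were lower in old than in young mice at that level, against 3.19%. Tlr8 and Tlr2 differed in the same direction as most of these markers in both age groups, and Cd14 did so in young mice alone. Tlr6, Tlr9 and Myd88 were also higher in both age groups. Tlr1 and Ly96 were lower in both, and Tlr7 was higher in young mice alone. None of these differences passed the adjusted threshold. The median of all kept probe sets was also positive, at 0.05 in old and 0.09 in young mice. The brightest Tlr4 probe set had the opposite sign in both age groups. In young mice the other kept Tlr4 probe sets gave 0.05 (SE 0.19) and 0.03 (SE 0.19), so the sign there was not shared by the probe sets. Markers of plasmacytoid dendritic cells, which carry Tlr7 and Tlr9, stood at 8.47 to 8.59 in old arthritic and 8.60 to 8.61 in old non-arthritic mice, and none of 6 passed an unadjusted p of 0.05 in any comparison. B cell markers, with Tlr9 as a receptor of these cells, lay between 11.28 and 11.61 over all mice. The part of these cells in the values of the Toll-like receptors was not tested.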

How the data were processed

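The authors deposited 1 log2 signal for each probe set and array, and the submitters' processing notes name RMA, with its version not given in the sources used here. Methods for the arrays were not found in the paper. Of the table, 64 control rows were left out. Genes were named by the platform table, and 932 probe sets with several symbols and 9160 with none were tested but not named. Each gene stands for its brightest kept probe set.

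Groups and ages were taken from the sample labels. The functions lmFit and eBayes of limma 3.58.1, run in R 4.3.3, were applied to the 23805 probe sets that passed the filter, with Benjamini-Hochberg adjustment over all of them. A fit with 4 group means gave the comparisons of arthritis in old and in young mice, of age group in non-arthritic mice and the interaction of arthritis and age group. A fit with arthritis status and age in months gave the comparison at equal age and the slope per month. The labels name separate mice as replicates, and the number of arrays limits the precision. Probe sets below the filter were tested in a fit of all probe sets.

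The genes, the pathway and marker lists and the tests were chosen with earlier results of these data known. The genes named are the 10 of the set, up to 4 of each other list with the smallest p, and for each of the 10 the 3 genes with the highest correlation. Alternatives covered the filter, the scaling between arrays, array weights, the trend of the spread, the probe sets of a gene, the replicate number as a block, the groups in the fit and leaving out each mouse. The fits were tested on simulated data. Replicate numbers were not used to pair mice, since deviations of mice of the same number correlated at -0.53 to 0.36. Promoters were taken from RefSeq (GRCm38.p6), and figures were drawn with matplotlib 3.10.9.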

Additional observations from a re-analysis of the deposited data

How the results depend on the processing

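The number of the 10 genes past the threshold stayed at 0 in all 6 comparisons under every alternative run but one. With limma array weights, 1 gene passed at equal age, Tlr2 with 0.27 (adjusted p = 0.0494), in a fit that called 4857 probe sets in all, against 538 in the fit without weights. The adjusted p of Tlr2 ran from 0.0494 to 0.532 over its alternatives. The highest came with quantile normalization applied again, where its difference at equal age was 0.15 (SE 0.10) against 0.26 in the main fit. With the replicate number as a block 0 of the 10 genes passed in each comparison, and 0 in old mice with the numbers of the old non-arthritic mice crossed, an alternative chosen after seeing the data. With the block, 29 probe sets passed at equal age and 0 in old and in young mice, and the cause was not tested. For age in months the block took the slope of Tlr4 from -0.05 to -0.12 and that of Cd14 from -0.04 to -0.07. At an unadjusted p under 0.05 (limma), 6 of the 10 genes then passed for age in months. Without the block 0 of them passed, against 9.98% of all kept probe sets. The share of all probe sets at that level with the block was not taken, so the 6 cannot be read as a result about the set. With the block 0 probe sets passed the adjusted threshold for age in months. Leaving out each mouse in turn left 0 of the 10 genes past the threshold. Of the differences of single genes, 24 of 600 moved by more than their standard error when a mouse was left out and 23 of 540 under the other alternatives, and the rest stayed within it. Some moves were as large as those given above for old mice. With the replicate block the Tlr4 difference in young mice went from -0.11 to -0.34. Without young arthritic replicate 2 the equal-age difference of Ly96 went from -0.13 to -0.38.

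Quantile normalization applied again turned the sign of 6 small differences of Myd88, Cd14 and Tlr6, and it took the median of all kept probe sets at equal age from 0.09 to -0.0040. At equal age Tnf, examined after seeing the data, lost its call under 5 of the 9 other alternatives (adjusted p from 0.00488 to 0.106). Tlr5 lost its call under quantile normalization again (0.0537) and the replicate block (0.0661). Its probe set was below the filter, and so has no value, with a filter on the mean and on leaving out replicate 1 of the old or replicate 2 of the young non-arthritic mice. No fit of only the groups compared was made for the interaction, which uses all 4 groups.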
